A study of Mus musculus with 22 samples.

Results

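Dense clusters of C/EBPβ sites were examined in MC3T3-E1 cells, a mouse pre-osteoblast line. Chromatin immunoprecipitation sequencing (ChIP-seq), which maps where a protein or histone mark lies on DNA, had been done in undifferentiated cells and in cells differentiated for 15 days with ascorbic acid and glycerol-2-phosphate. The cells had received 100 nM calcitriol, the hormonal form of vitamin D, or ethanol vehicle for 3 h. Undifferentiated and differentiated calcitriol-treated cells each had region lists for the vitamin D receptor (VDR), its partner RXR, C/EBPβ, RUNX2 and the marks H4K5ac, H3K9ac, H3K4me1, H3K4me3 and H3K36me3. The sample labels name H4K5ac where the protocol text has H3K5Ac. The labels were followed, so the name H4K5ac rests on them alone. VDR and RXR also had a vehicle list in each state, which made 22 lists, 1 per antibody, state and treatment. All groups share the same line at passages 5 to 12. The differentiated cultures also went through homogenization and a sucrose spin that removed matrix, so state and preparation cannot be told apart. Each list was taken to hold the regions shared by the authors' replicates, and no replicate had a list of its own. The values below therefore have no replicate check, and their intervals cover the counting of regions only.

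The clusters were chosen by the positions of the calcitriol C/EBPβ sites in undifferentiated cells alone. Sites on chromosomes 1 to 19 and X were sorted, and neighbours whose centres lay at most 12500 bp apart were chained. A cluster is a chain of 4 or more sites, from the first start to the last end. There were 528 clusters among 12260 chains of any length, holding 2588 of the 17950 sites (14.4%) in 9.02 Mb, or 0.342% of these chromosomes. The remaining chains comprised 738 of 3 sites, 2154 of 2 sites and 8840 of 1 site, called isolated. Positions are given on mm9 (NCBIM37) with GENCODE vM1 genes. Every site of a transcription factor list was 201 bp wide and carried no height, so a site is listed or not listed and binding strength is not measured.

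C/EBPβ is a leucine zipper factor that binds DNA as a dimer and takes part in mesenchymal and inflammatory gene programmes. In osteoblasts it works beside RUNX2, the factor that directs bone formation. VDR binds calcitriol and, paired with RXR, occupies direct repeats with a 3 bp spacer (DR3). H3K4me1 and histone acetylation mark enhancers, H3K4me3 marks gene starts, and H3K36me3 covers transcribed gene bodies. Groups of enhancers packed close together are found near genes that define a cell type. As a check of the labelled cell type, Runx2, Sp7, Col1a1, Col1a2 and Sparc carried H3K4me3 at the start and H3K36me3 over the body in both states. The bone genes Alpl and Bglap had neither. The muscle, blood and neuron genes checked (Myod1, Myog, Ckm, Ptprc, Cd3e, Gata1, Rbfox3, Snap25 and Neurod1) had neither mark in either state, whereas the chondrocyte gene Sox9 had both in each state. Col2a1 had H3K4me3 and 18.8% of its body under H3K36me3 in undifferentiated cells and neither mark in differentiated cells.

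The cluster upstream of Spp1 shows sites with and without a C/EBP match within 1 cluster. Spp1 encodes osteopontin, a phosphoprotein of bone matrix and a known calcitriol target. The gene lies at chr5:104864137-104870069 on the plus strand, and its cluster spans chr5:104803184-104863538, between Mepe and Spp1. Of its 13 sites, 8 held at least 1 match to the C/EBP motif, here TTGCNNAA or TTACNNAA on either strand. The windows of 32 bases around 1 match per site are printed 5′ to 3′ on the strand of the match, with the 8 matched bases in capitals.
Site 1, chr5:104803343-104803374, plus strand: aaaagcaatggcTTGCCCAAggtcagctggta
Site 3, chr5:104821959-104821990, plus strand: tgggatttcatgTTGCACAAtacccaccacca
Site 4, chr5:104825623-104825654, minus strand: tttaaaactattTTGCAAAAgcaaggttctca
Site 5, chr5:104825933-104825964, minus strand: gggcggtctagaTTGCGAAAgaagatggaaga
Site 7, chr5:104837080-104837111, minus strand: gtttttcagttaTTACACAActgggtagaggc
Site 9, chr5:104848771-104848802, plus strand: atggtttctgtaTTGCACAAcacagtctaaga
Site 12, chr5:104863090-104863121, plus strand: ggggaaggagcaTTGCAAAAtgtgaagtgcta
Site 13, chr5:104863434-104863465, plus strand: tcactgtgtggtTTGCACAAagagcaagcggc
These 8 windows hold 5 different 8-base matches. Sites 3, 9 and 13 share TTGCACAA, and sites 4 and 12 share TTGCAAAA.

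The 3 sites nearest the Spp1 start are printed whole on the plus strand because they hold different combinations of motif and partner factors. Capitals mark C/EBP matches, RUNX matches (TGTGGT or TGCGGT on either strand) and DR3 matches with at most 1 mismatch, and site 11 has none of them.
Site 11, chr5:104861978-104862178: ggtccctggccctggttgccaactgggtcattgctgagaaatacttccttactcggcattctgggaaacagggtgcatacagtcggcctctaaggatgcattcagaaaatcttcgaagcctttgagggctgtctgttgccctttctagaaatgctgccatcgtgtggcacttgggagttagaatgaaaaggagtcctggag
Site 12, chr5:104863029-104863229: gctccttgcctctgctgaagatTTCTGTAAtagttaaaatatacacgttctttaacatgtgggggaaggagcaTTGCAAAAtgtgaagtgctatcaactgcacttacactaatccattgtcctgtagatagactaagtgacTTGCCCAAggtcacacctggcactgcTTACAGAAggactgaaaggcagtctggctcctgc
Site 13, chr5:104863338-104863538: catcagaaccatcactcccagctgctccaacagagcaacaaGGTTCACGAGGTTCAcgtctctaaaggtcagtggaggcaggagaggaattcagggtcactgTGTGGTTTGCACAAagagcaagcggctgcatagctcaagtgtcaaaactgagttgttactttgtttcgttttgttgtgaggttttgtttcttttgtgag
Site 11, centred at -2.06 kb from the start, overlapped VDR, RXR and RUNX2 sites in both states. It also overlapped a VDR vehicle site in undifferentiated cells. Site 12, at -1.01 kb, held 4 C/EBP matches and overlapped none of VDR, RXR and RUNX2 in either state. Site 13, at -0.70 kb, held 1 C/EBP match directly after 1 RUNX match, and 1 DR3 match further upstream. It overlapped VDR, RXR and RUNX2 under calcitriol in both states, and VDR vehicle in undifferentiated cells. All 3 were listed again for C/EBPβ in differentiated cells.

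Most clusters were short and near the minimum size. Of the 528, 299 had 4 sites, 117 had 5, 52 had 6 and 33 had 7. The 12 clusters of 10 or more sites reached 16 sites at Sept11. The span ran from 1.07 to 69.8 kb with a median of 15.9 kb, and 31 clusters were under 5 kb. Neighbouring sites lay a median of 3.30 kb apart, with an interquartile range of 0.944 to 7.17 kb. The most compact cluster packed 5 sites into 1.31 kb on chromosome 18, with its edge 1.52 kb from the Zfp474 start. Another cluster lay within 100 kb of 136 of the 528.

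The threshold cut through a continuous distribution. Of the 2060 gaps within clusters, 42 were within 500 bp of the limit, in 40 clusters. On the other side, 28 chains of 3 had a further site within 500 bp past it. In chains of 3 and clusters of 4, 66.6% and 66.3% of their sites were listed again for C/EBPβ in differentiated cells, 23.5% and 27.1% overlapped VDR, 23.4% and 24.0% overlapped RXR, and 27.6% and 28.4% overlapped RUNX2. Differentiated H3K4me3 differed more, at 12.3% and 7.19%. When sites within 1 kb of each other were counted as 1, an alternative chosen after seeing the data, 325 clusters remained.

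**Figure D1:**
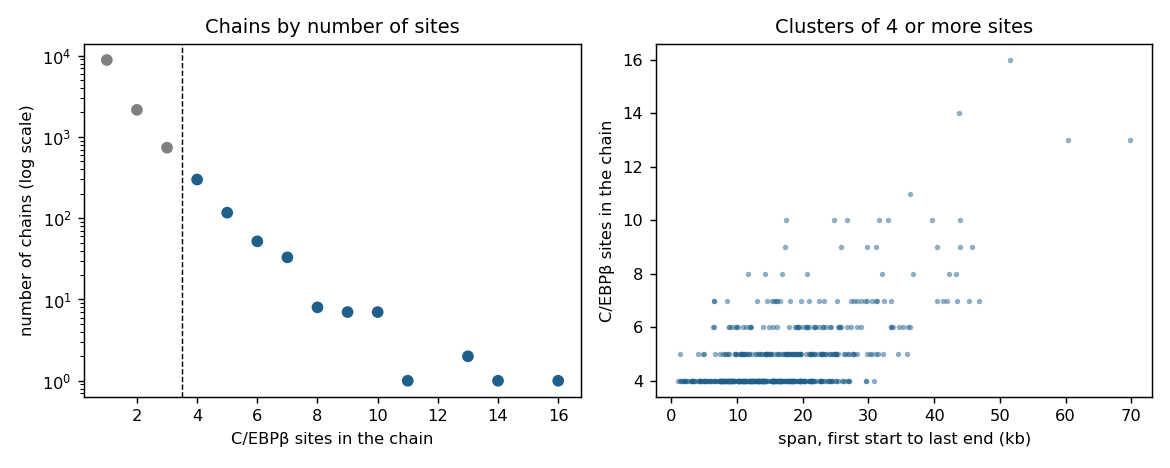
Left, the number of chains (log axis) by the C/EBPβ sites they hold, with the dashed line at the minimum of 4 and smaller chains in grey. Right, each of the 528 clusters by its span in kb and its number of sites. Most clusters have 4 or 5 sites, and few reach 10.

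The clusters were unevenly spread over the chromosomes. Chromosome 19 held 35, or 57.1 per 100 Mb, and chromosome 11 held 44, or 36.1 per 100 Mb. Chromosome 14 held 8 (6.39 per 100 Mb) and chromosome X held 3 (1.80 per 100 Mb). The density of all C/EBPβ sites moved with these numbers, at 13.3, 9.71, 4.35 and 1.67 sites per Mb in the same order, and its part in the uneven spread was not tested. Clustered sites were less often within 1 kb of a gene start than isolated sites (7.11% and 16.7%), and more often between genes (56.9% and 45.0%). Introns held 34.9% and 36.1%. By cluster, 140 had a start of a protein-coding gene inside.

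Clustered sites overlapped VDR, RXR and RUNX2 more often than isolated C/EBPβ sites did. To avoid counting neighbours as independent, the middle site of each cluster (528) was compared with the isolated sites (8840) by two-sided Fisher's exact tests, adjusted by the Benjamini-Hochberg method over 20 features. These tests compare lists, not cultures. A middle site is never an end of its cluster. In undifferentiated cells with calcitriol, VDR overlapped 168 of the 528 middle sites (31.8%) and 1020 of the isolated sites (11.5%), against 17.5% of all C/EBPβ sites. The odds ratio was 3.58 (95% interval 2.95 to 4.35, adjusted p = 3.79e-32, Fisher's exact test). RXR with calcitriol overlapped 29.9% and 12.2%, against 17.2% of all sites, an odds ratio of 3.06. RXR without hormone gave nearly the same picture, at 29.7% and 12.5%, against 17.4% of all sites, an odds ratio of 2.96. RUNX2 overlapped 33.9% and 18.1%, against 22.6% of all sites, an odds ratio of 2.32 (1.92 to 2.80, adjusted p = 1.18e-16, Fisher's exact test). VDR without hormone overlapped 12 middle sites (2.27%) and 110 isolated sites (1.24%), against 1.49% of all sites, and did not pass (odds ratio 1.85, 1.01 to 3.37, adjusted p = 0.0741, Fisher's exact test). Under 5 of the alternatives that comparison passed, with an odds ratio of 4.49 for clusters chained at 5 kb. Of these, 1 took every site of the clusters and so counted neighbours as independent.

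In differentiated cells the same factors were again more frequent at clustered sites, at other levels. VDR with calcitriol overlapped 24 middle sites (4.55%) and 105 isolated sites (1.19%), against 1.82% of all sites, an odds ratio of 3.96 (2.52 to 6.23, adjusted p = 2.38e-07, Fisher's exact test). RXR overlapped 29.7% and 13.6% with calcitriol, against 18.5% of all sites, and 18.4% and 8.28% with vehicle, against 11.0% of all sites. RUNX2 overlapped 24.2% and 12.7%, against 15.6% of all sites, an odds ratio of 2.19 (adjusted p = 5.93e-12, Fisher's exact test). VDR with vehicle overlapped 0 of 528 middle sites, which allows up to 0.696% by the exact 95% interval, and 24 isolated sites (0.271%), against 0.201% of all sites. Its test did not pass (adjusted p = 0.643, Fisher's exact test). Whether the odds ratios differ between the states was not tested.

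The enhancer marks were near their ceiling in clusters. In undifferentiated cells H4K5ac covered 525 of the 528 middle sites (99.4%) and 81.7% of isolated sites, against 89.1% of all sites. H3K4me1 covered 99.1% and 88.7%, against 93.3% of all sites. In differentiated cells H4K5ac covered 98.3% and 74.1%, against 84.2% of all sites, and H3K4me1 98.7% and 87.0%, against 91.9% of all sites. H3K9ac, the narrower acetyl mark, separated the sites more: 69.3% and 33.7% in undifferentiated cells, against 44.4% of all sites, and 77.7% and 43.8% in differentiated cells, against 55.3% of all sites. Its odds ratio was 4.45 in each state (3.68 to 5.38 and 3.61 to 5.49). Over all clustered sites, ends included, H3K9ac covered 65.0% in undifferentiated and 74.7% in differentiated cells. H3K36me3 covered 39.0% and 25.0% in undifferentiated cells, against 29.1% of all sites, and 24.1% and 18.9% in differentiated cells, against 20.5% of all sites (odds ratio 1.36, adjusted p = 0.00487, Fisher's exact test). All of these comparisons passed, but differentiated H3K36me3 did not in clusters chained at 5 kb (odds ratio 1.22, adjusted p = 0.315, Fisher's exact test).

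H3K4me3, the mark of gene starts, was more frequent at clustered sites in undifferentiated cells and less frequent in differentiated cells. In undifferentiated cells it covered 22.5% of middle and 16.8% of isolated sites, against 18.7% of all sites (odds ratio 1.44, 1.17 to 1.78, adjusted p = 0.00122, Fisher's exact test). In differentiated cells it covered 7.95% and 14.8%, against 12.9% of all sites (odds ratio 0.498, 0.361 to 0.686, adjusted p = 6.48e-06, Fisher's exact test). Restricted to sites over 1 kb from a gene start, the differentiated value turned to an odds ratio of 1.23 (adjusted p = 0.398, Fisher's exact test). The undifferentiated odds ratio was then 2.73 (2.15 to 3.48, adjusted p = 1.01e-13, Fisher's exact test), so the opposite directions were not found away from gene starts. In clusters chained at 5 kb neither H3K4me3 value passed (odds ratio 1.38, adjusted p = 0.114, in undifferentiated and 0.845, adjusted p = 0.595, in differentiated cells, Fisher's exact test). Over the 20 features, 17 were more frequent at clustered sites, 1 was less frequent and 2 did not pass. Among sites that lay within both H4K5ac and H3K4me1 in undifferentiated cells, an alternative chosen after seeing the data, undifferentiated H3K4me3 (odds ratio 1.12) and differentiated H3K4me1 (odds ratio 2.70) no longer passed.

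**Figure D2:**
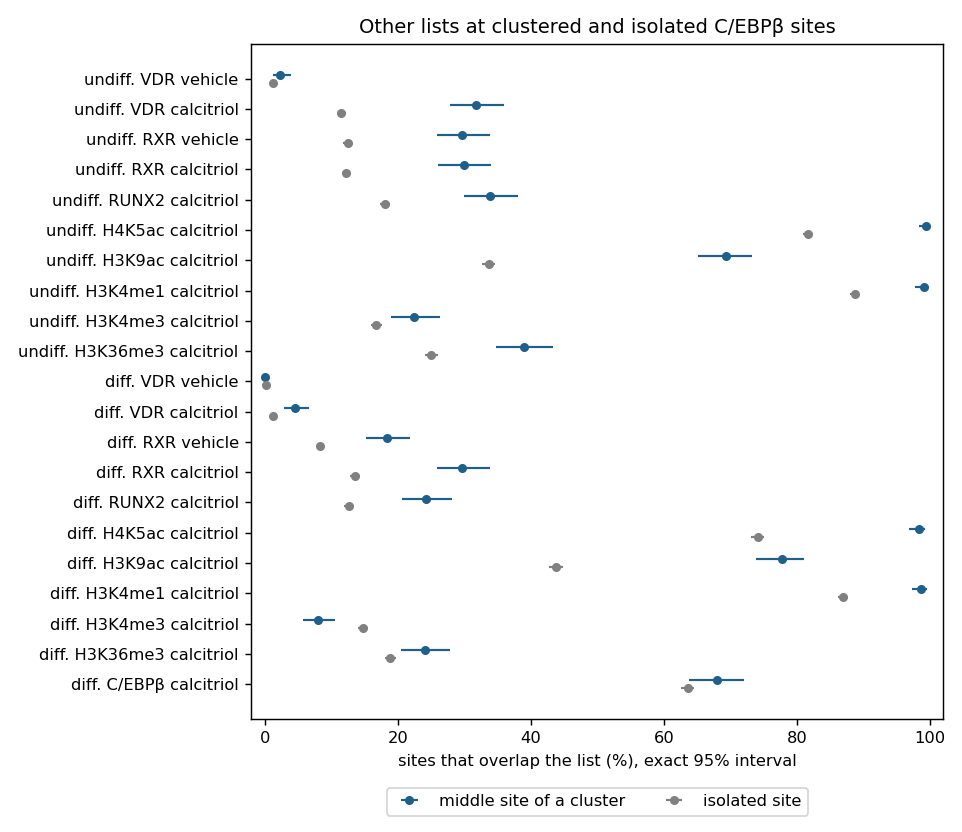
Percent of middle sites of clusters (blue, 528) and of isolated sites (grey, 8840) that overlap each other list, with exact 95% intervals. Blue lies to the right of grey in most lines, with differentiated H3K4me3 at 7.95% against 14.8% the other way.

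The shares of VDR, RXR, RUNX2 and H3K9ac were higher in clusters of 7 or more than at isolated sites, given here as a description without a test. VDR in undifferentiated cells overlapped 11.5% of isolated sites, 19.6% of sites in chains of 2, 23.5% in chains of 3, 27.1% in clusters of 4 and 34.9% in clusters of 7 or more. Undifferentiated H3K9ac went from 33.7% of isolated sites to 75.6% in clusters of 7 or more. RUNX2 had 18.1%, 24.7%, 27.6% and 28.4% for 1 to 4 sites and 32.9% for 7 or more. Lower values in larger chains were found, among others, for differentiated H3K4me3, with 14.8% of isolated sites and 7.88% in clusters of 7 or more. The same held for differentiated VDR with vehicle (0.271% and 0%) and the C/EBP motif (56.1% and 49.5%). It also held for the C/EBP palindrome TTGCGCAA (3.72% and 0.808%) and the C/EBP-ATF composite TGATGCAA (6.69% and 3.64%). The C/EBP motif did not fall at every step, with 52.8% in clusters of 5 and 45.2% in clusters of 6. Sites at the 2 ends of a cluster had lower shares than inner sites for VDR (25.6% and 31.5%) and H3K9ac (57.6% and 70.0%), whereas their return in the differentiated C/EBPβ list was nearly equal (65.6% and 65.4%).

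**Figure D3:**
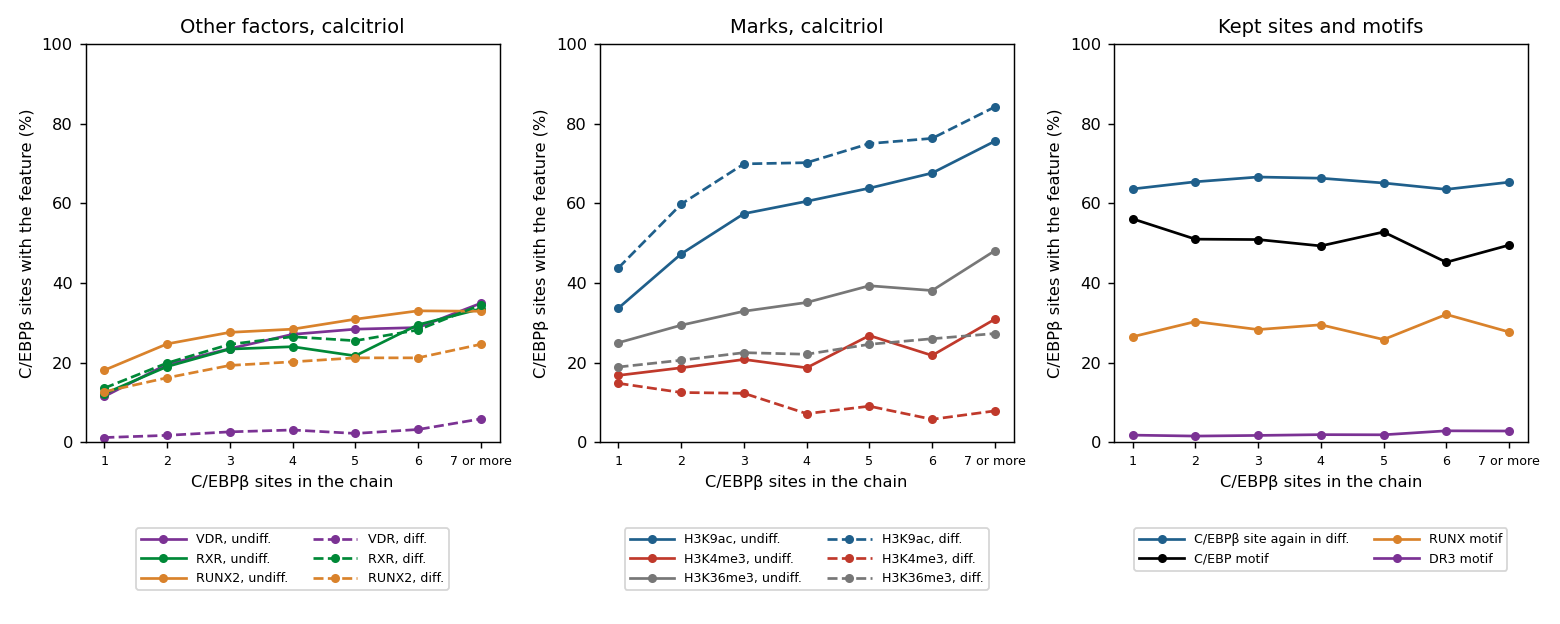
Percent of C/EBPβ sites with each feature, by the number of sites in their chain. Solid lines are undifferentiated and dashed lines differentiated cells in the left and middle panels; VDR climbs from 11.5% to 34.9% in undifferentiated cells while the share listed again stays between 63.5% and 66.6%.

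Within clusters the partner factors fell on a minority of the sites. In undifferentiated cells with calcitriol, 1491 of the 2588 clustered sites (57.6%) overlapped none of VDR, RXR and RUNX2, against 75.3% of isolated sites. All 3 factors met at 397 clustered sites (15.3%) and at 5.40% of isolated sites. VDR without RXR was found at 257 (9.93%) and RXR without VDR at 176 (6.80%). In differentiated cells RXR without VDR was found at 642 clustered sites (24.8%) and VDR without RXR at 6 (0.232%). Isolated sites had the same order: RXR without VDR at 4.84% in undifferentiated and 12.6% in differentiated cells, and VDR without RXR at 4.14% and 0.226%. By cluster, 330 held at least 1 site of each of the 3 factors in undifferentiated cells and 71 did so in differentiated cells. Undifferentiated cells had 41 clusters with no site of any of the 3. No such count was made for other regions. The whole VDR lists with calcitriol held 7000 sites in undifferentiated and 871 in differentiated cells. In undifferentiated cells, VDR, RXR and RUNX2 with calcitriol had 96.7, 89.6 and 107 sites per Mb inside clusters. Equal windows beside them had 15.3, 16.1 and 20.8, and these chromosomes 2.65, 2.88 and 4.55.

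Clustered sites less often held a match to the C/EBP motif. At least 1 match lay in 255 of the 528 middle sites (48.3%, exact 95% interval 44.0 to 52.7) and in 56.1% of isolated sites, against 53.3% of all sites (odds ratio 0.732, 0.614 to 0.873, adjusted p = 0.00307 over 6 motifs, Fisher's exact test). Windows of the same width 2 kb away held the motif in 16.0% and 16.9%, lower than at the sites themselves for both kinds. The perfect palindrome TTGCGCAA, which also counts as a C/EBP match, was in 7 middle sites (1.33%) and 3.72% of isolated sites, against 2.70% of all sites (odds ratio 0.348, adjusted p = 0.00699, Fisher's exact test). Both calls were lost in clusters chained at 5 kb (odds ratios 0.766 and 0.530) and of 6 or more sites (0.937 and 0.470). They were also lost among sites in H4K5ac and H3K4me1 (0.843 and 0.652) and when sites within 1 kb counted as 1 (0.769 and 0.404). Median GC content was 45.8% at clustered and at isolated sites.

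The other motifs did not pass the test. The C/EBP-ATF composite TGATGCAA was in 4.92% and 6.69%, against 6.03% of all sites. RUNX was in 29.2% and 26.5%, against 27.9% of all sites. AP-1 (TGACTCA or TGAGTCA) was in 10.4% and 12.4%, against 12.2% of all sites. DR3 was in 2.08% and 1.80%, against 1.79% of all sites. Their 95% intervals of the odds ratio were 0.483 to 1.08, 0.943 to 1.39, 0.619 to 1.10 and 0.626 to 2.15. Of all 2588 clustered sites, 1285 (49.7%) held a C/EBP match. At least 2 sites with a C/EBP match were present in 391 of the 528 clusters, every site matched in 33, and no site matched in 27. No expected numbers were worked out for these counts, so they are no result about the clusters.

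Motif and partner factors tended to lie at different sites of a cluster. In undifferentiated cells, 413 of the 1097 clustered sites with VDR, RXR or RUNX2 held a C/EBP match (37.6%, 34.8 to 40.6), against 872 of the 1491 without them (58.5%, 55.9 to 61.0). In the 449 clusters with both kinds of site, the share with a match was lower at the partner sites in 277, higher in 109 and equal in 63. RUNX matches ran the other way, at 40.2% with and 20.1% without partners, as did DR3, at 3.92% and 0.939%. Isolated sites showed the same order for C/EBP, at 41.0% and 61.0%, so it was not particular to clusters. These shares are given as a description, since sites of 1 cluster share a locus.

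The Spp1 cluster did not have this order: in undifferentiated cells 4 of its 6 sites with a partner held a C/EBP match (sites 1, 3, 7 and 13), against 4 of the 7 without. The largest cluster did have it. It spans chr5:93514161-93565724 with 16 sites and holds a start of Sept11, a septin cytoskeleton gene at chr5:93522483-93605473 on the plus strand. The 6 sites with a C/EBP match are shown, as windows on the strand of the match with the match in capitals, because 5 of them had no partner.
Site 3, chr5:93515148-93515179, minus strand: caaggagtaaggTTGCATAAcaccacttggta
Site 6, chr5:93530046-93530077, plus strand: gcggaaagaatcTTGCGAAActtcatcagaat
Site 7, chr5:93532646-93532677, plus strand: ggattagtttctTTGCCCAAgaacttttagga
Site 9, chr5:93541458-93541489, minus strand: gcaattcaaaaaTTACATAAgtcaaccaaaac
Site 10, chr5:93543144-93543175, minus strand: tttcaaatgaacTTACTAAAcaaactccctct
Site 11, chr5:93543405-93543436, plus strand: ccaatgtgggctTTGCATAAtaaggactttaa
Sites 3, 6, 7, 9 and 10 overlapped none of VDR, RXR and RUNX2 in either state, and site 11 overlapped RUNX2 in both and VDR vehicle in undifferentiated cells. Sites 1, 14, 15 and 16 overlapped VDR, RXR and RUNX2 in undifferentiated cells and had no C/EBP match.

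Differentiated cells listed most clustered sites again. Of the 2588 sites, 1695 (65.5%) overlapped a differentiated C/EBPβ site. For middle against isolated sites the values were 359 of 528 (68.0%) and 5622 of 8840 (63.6%), against 64.7% of all sites (odds ratio 1.22, 1.01 to 1.47, p = 0.0449, Fisher's exact test). That call was lost under 6 of 10 alternatives, among them every site of the clusters (odds ratio 1.09, p = 0.0807, Fisher's exact test). Every site returned in 99 clusters and none in 11. New differentiated sites numbered 123, in 94 clusters. The same chaining rule applied to the differentiated list gave 441 clusters of 2174 sites, the largest with 17. Of the undifferentiated clusters 246 (46.6%) overlapped a differentiated one, and of the differentiated clusters 244 (55.3%) overlapped an undifferentiated one.

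Sites that returned and sites that did not are compared here as a description. A C/EBP match lay in 55.0% of the 1695 returning and 39.4% of the 893 other clustered sites. RXR of differentiated cells overlapped 34.0% and 16.7%, and RUNX2 of differentiated cells 26.6% and 11.5%. Undifferentiated VDR was close, at 29.9% and 27.7%. Isolated sites had the same order for the motif (59.2% and 50.5%) and for differentiated RXR (17.0% and 7.68%).

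Between the states, far fewer VDR sites were listed in clusters, while RXR with calcitriol had similar numbers. These values have no test. With calcitriol, VDR had 872 sites in the clusters of undifferentiated cells and 97 in those of differentiated cells, a ratio of 0.111, beside 0.124 for the whole lists (7000 and 871 sites). Differentiated cells had fewer in 390 clusters, as many in 136 and more in 2. VDR was present in 404 clusters (76.5%) of undifferentiated and 82 (15.5%) of differentiated cells, and all 82 already had a VDR site in undifferentiated cells. RXR with calcitriol numbered 808 and 871 sites, a ratio of 1.08 beside 1.07 for the whole lists. RXR with vehicle numbered 822 and 515, a ratio of 0.627 beside 0.615. RUNX2 numbered 964 and 689, a ratio of 0.715 beside 0.659, and was present in 444 (84.1%) and 360 clusters (68.2%). The ratios in clusters were thus near those of the whole lists. VDR with vehicle numbered 61 and 1, a ratio of 0.0164 beside 0.292. C/EBPβ itself numbered 2588 and 1799 (ratio 0.695, beside 0.922), a difference that carries the choice of clusters on the undifferentiated list. Depth is unknown for every list, and its part in these differences was not tested.

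H4K5ac and H3K4me1 covered most of the cluster length and less of the windows beside it. H4K5ac covered 95.2% of the summed cluster length in undifferentiated and 92.6% in differentiated cells, compared with 74.4% and 67.6% of equal windows on either side and 12.9% and 10.7% of these chromosomes. H3K4me1 covered 91.5% and 89.2%, with 64.6% and 61.8% beside the clusters. H3K9ac covered 41.2% and 47.4%, with 15.9% and 20.5% beside them, and was higher in differentiated cells by over 1 percentage point in 273 clusters and lower in 124. H3K36me3 covered 43.7% and 26.9% of the clusters, 37.0% and 27.1% of the windows beside them, and 14.0% and 12.3% of these chromosomes. In differentiated cells it thus covered about as much beside the clusters as inside them, with more inside in 110 clusters and more beside in 162. It was lower in differentiated than undifferentiated cells by over 1 percentage point in 252 clusters and higher in 17.

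H3K4me3 showed the steepest difference in coverage between the states. It covered 22.1% of cluster length in undifferentiated and 4.41% in differentiated cells, with 10.6% and 2.15% beside the clusters. It was present in 150 and 124 clusters, and covered 73 and 2 of them from end to end. Its lists differ in kind as well: undifferentiated regions averaged 7345 bp and differentiated regions 2469 bp, and genome coverage went from 1.94% to 0.841%. The part of region width in the cluster values was not tested.

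**Figure D4:**
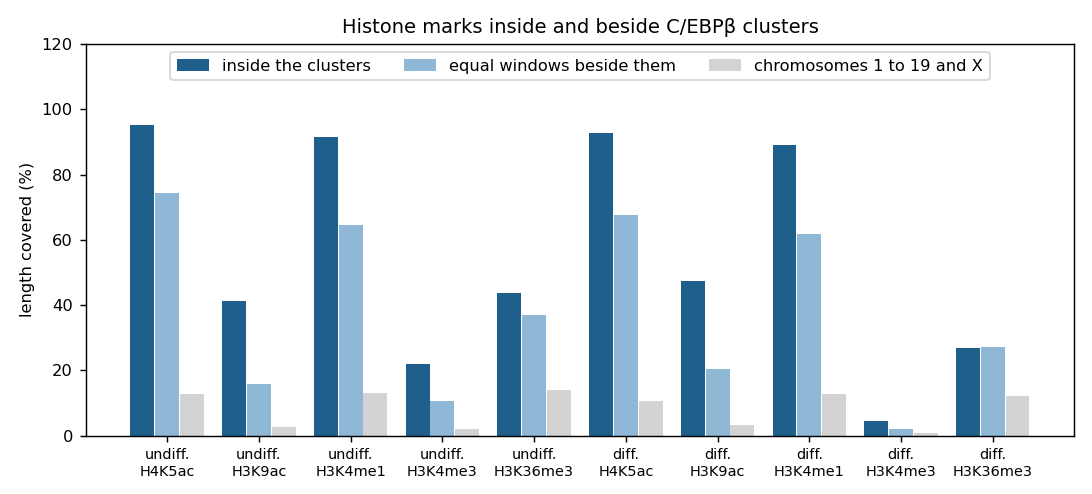
Percent of length covered by each histone mark inside the 528 clusters, in windows of the same length on either side, and over chromosomes 1 to 19 and X. H4K5ac and H3K4me1 exceed 89% inside clusters in both states, and H3K4me3 goes from 22.1% to 4.41%.

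Genes that start in clusters included bone matrix, cytokine and early response genes. Over all 22350 protein-coding genes, 166 (0.743%) had a start inside a cluster and 1189 (5.32%) within 100 kb of one. Of 222 genes in 15 lists chosen for osteoblast biology and for contrast, 18 (8.11%) had a start inside and 45 (20.3%) within 100 kb. The lists were drawn up with earlier results of these data known, so their counts are descriptions. No gene of the chondrocyte, skeletal muscle, blood, neuron or housekeeping lists had a start within 100 kb. Beside the 5.32% of all protein-coding genes, 0 in lists of 8 to 10 genes is no result about these lists.

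The bone matrix list had 6 of 26 genes inside and 13 within 100 kb. Inside were Col1a1 and Col1a2, the chains of type I collagen, Mgp, an inhibitor of calcification, Sparc, a collagen-binding protein, and the proteoglycans Dcn and Lum. Col1a1 (chr11:94797538-94814356) had 4 sites, all listed again, with VDR at 1 and 0, RXR at 5 and 3 and RUNX2 at 2 and 0 sites in undifferentiated and differentiated cells with calcitriol. Col1a2 (chr6:4454814-4491543) lay in a larger cluster of 10 sites over 44.0 kb, of which 5 returned, with VDR going from 3 to 0 and RXR from 4 to 2. H3K4me3 covered 100% of the Col1a2 cluster in undifferentiated and 15.4% in differentiated cells. Mgp had 6 sites, of which 3 returned, and VDR went from 5 to 1. Sparc had 4 sites, of which 2 returned, and VDR went from 2 to 1. Dcn had 4 and Lum 5 sites in neighbouring clusters on chromosome 10, where VDR went from 4 to 0 and from 3 to 0 while differentiated C/EBPβ numbered 5 and 6 sites.

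The C/EBP match TTGCACAA lay in both collagen clusters, and also in those of Spp1 and Csf1. Its share over all sites was not counted. One site of each collagen cluster is shown, both on the strand of the match. The Col1a2 site is 1 of 5 with a C/EBP match in its cluster, and the Col1a1 site is the only 1.
Col1a1 site 2, chr11:94796040-94796071, plus strand: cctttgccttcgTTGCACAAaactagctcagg
Col1a2 site 7, chr6:4468382-4468413, minus strand: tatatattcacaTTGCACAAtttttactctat
The Col1a1 site, upstream of the gene, was listed again and overlapped RXR in both states. The Col1a2 site, 13.62 kb inside the gene, was not listed again and overlapped VDR in undifferentiated cells alone.

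Cytokine and early response genes formed the next groups. Of 22 cytokine and acute response genes, 3 had a start inside a cluster and 9 within 100 kb. For Csf1 and Ptges this was the start of a shorter transcript, and the outermost 5′ end of the gene lay outside the cluster. Csf1, which encodes the macrophage growth factor that osteoclast precursors need, had 6 sites, of which 4 returned, with VDR from 2 to 0 and RUNX2 at 4 in each state. Ptges, a prostaglandin E synthase gene, had 5 sites and VDR from 6 to 0 while RXR went from 4 to 5. At the chemokine gene Ccl2, 1 of 4 sites returned, and VDR and RUNX2 were listed in neither state. Socs3, a feedback inhibitor of cytokine signalling 5.52 kb from its cluster, had 7 sites, of which 3 returned, and RXR numbered 5 in each state. Of 20 AP-1 and early response genes, Fosl1, Fosl2, Junb and Myc started inside. Fosl2 kept 4 of 5 sites while VDR went from 3 to 0 and RUNX2 from 1 to 3.

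The remaining lists had fewer genes at clusters. Runx1, a RUNX2 relative, was the 1 of 15 osteoblast transcription factor genes with a start inside. That start belonged to a shorter transcript, and the outermost 5′ end of Runx1 lay outside the cluster. Of 22 BMP and TGF-beta genes, Id1 and Smad7, both targets that restrain differentiation or signalling, started inside. The Id3 start lay 2.77 kb from a cluster. A cluster 5.96 kb from a Tgfbr2 start lay inside that gene. Acta2 and Cald1, genes of the contractile cytoskeleton, started inside. Beside the 0.743% of all protein-coding genes that start inside a cluster, a count of 0 in lists this short is no result about the list. None of 18 Wnt genes did, and Axin2 lay 22.1 kb away. None of 16 vitamin D response genes did, although starts of Spp1, Rxra and Slc8a1 lay 0.599, 31.9 and 94.3 kb from a cluster. The cluster for Slc8a1 lay inside that gene. Cebpb itself started 1.16 kb upstream of a cluster of 4 sites, of which 3 returned.

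The Spp1 cluster held the most VDR sites of any cluster in undifferentiated cells, and shared the highest number in differentiated cells with 2 others. It had 9 VDR sites with calcitriol in undifferentiated cells and 3 in differentiated cells, 9 and 10 RXR sites, and 7 and 8 RUNX2 sites. Of its 13 C/EBPβ sites 12 returned, and 14 C/EBPβ sites were listed there in differentiated cells. The 3 VDR sites of differentiated cells lay at -27.02, -1.98 and -0.75 kb from the start, each overlapping a VDR site of undifferentiated cells. H3K9ac covered 29.6% and 56.7% of the cluster, whereas H3K4me3 covered 18.1% and 0%. Mepe and Ibsp, 2 further genes of mineralized matrix, started 48.8 and 75.0 kb beyond its other end. At Sept11, VDR went from 8 to 0 sites while RXR went from 6 to 8 and 13 of 16 C/EBPβ sites returned. H3K4me3 covered 100% of that cluster in undifferentiated and 9.58% in differentiated cells.

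**Figure D5:**
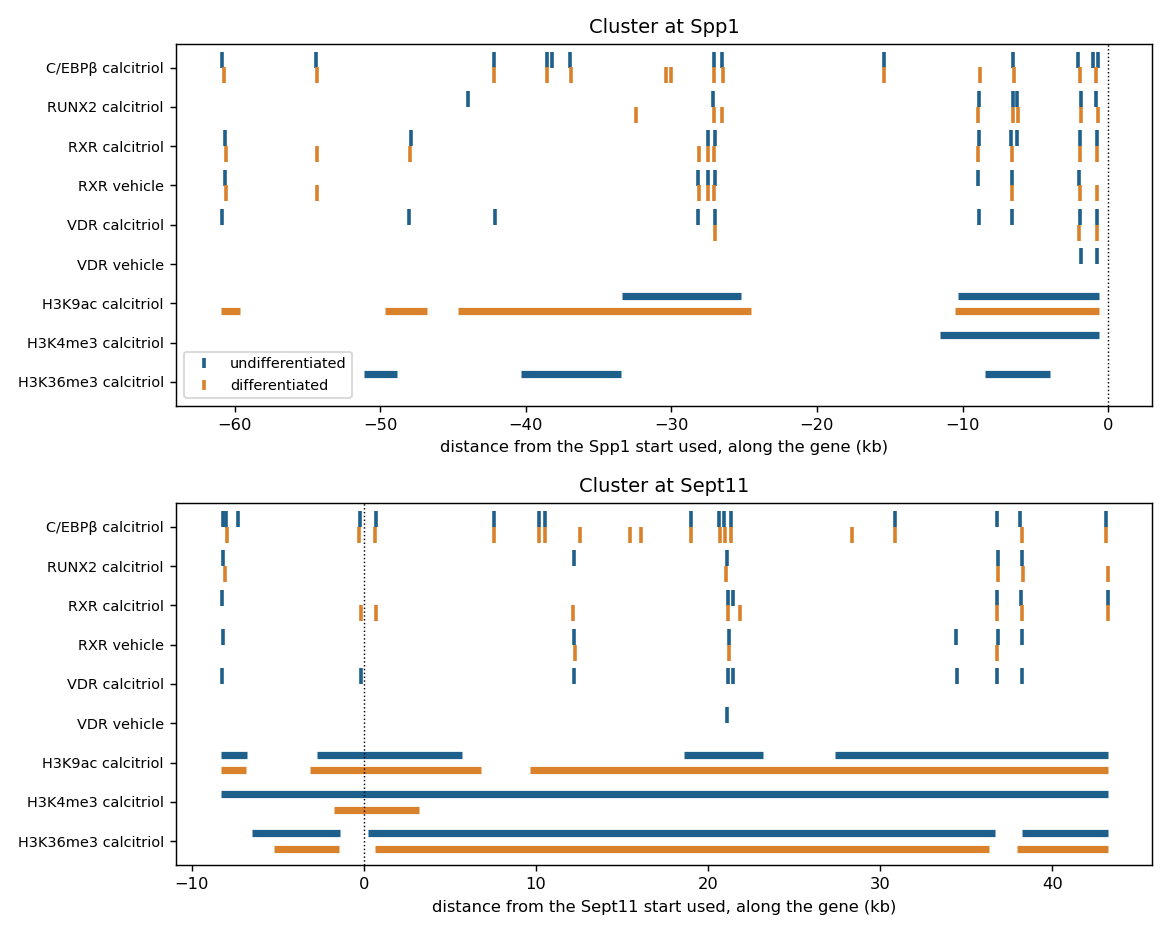
Sites (ticks) and mark regions (bars) in the Spp1 and Sept11 clusters by distance in kb from the gene start (dotted line), with undifferentiated cells in blue and differentiated cells in orange. VDR with calcitriol goes from 9 to 3 ticks at Spp1 and from 8 to 0 at Sept11, while C/EBPβ has 13 and 14 ticks at Spp1.

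Large clusters differed in what they kept. Inside Fbn1, which encodes fibrillin of elastic microfibrils, 9 of 10 sites returned, RXR went from 2 to 8 and RUNX2 from 2 to 6, and VDR from 5 to 1. At Amotl2, 5 of 13 sites returned, RUNX2 went from 10 to 6 and VDR from 4 to 0. Inside Dnm3 and Pigc, 5 of 10 returned, VDR went from 7 to 0 and H3K36me3 from 100% to 0% of the cluster. Inside Tcf7l2, a nuclear effector of Wnt signalling, 7 of 10 returned and VDR went from 5 to 1. In a cluster between the starts of Pbp2, 9.08 kb away, and Emp1, 18.7 kb away, VDR went from 7 to 3. The cluster of 7 sites at Tnrc18 lay 64.1 kb from a start of the actin gene Actb. It held 4 VDR sites with vehicle in undifferentiated cells, the highest number in a cluster, and 8 with calcitriol.

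All 7 sites returned in 6 clusters, among them those at Rnd3, inside Bre and between Ccnl1 and Veph1. In contrast, 1 of 7 returned in 3 clusters, among them that 13.3 kb from Cyp1b1 and that beside Smndc1. Near Cyp1b1, H3K4me3 went from 100% to 0%. The cluster whose nearest gene start is Ankrd50, 148 kb away, was 1 of 2 in which VDR had more sites in differentiated cells, 3 against 2, while RUNX2 went from 4 to 0.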

How the data were processed

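The data are 22 deposited region lists on mm9. Reads were processed with Bowtie and HOMER, per the submitters' processing notes; no version, setting or threshold is stated there. Region coordinates are the other values the authors deposited. The score deposited by the authors was 0 in every transcription factor region, and in mark lists its meaning is not stated; it served only to leave out the lowest 25% of mark regions in 1 alternative. Read depth is unknown.

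Lists were joined by overlaps of at least 1 bp with Python 3.11.15, numpy 2.4.6, scipy 1.17.1 and pysam 0.24.0. The comparison of middle with isolated sites used two-sided Fisher's exact tests, called at an adjusted p under 0.05, with exact Clopper-Pearson 95% intervals of shares. The 95% intervals of odds ratios were Woolf intervals, an approximation on the log scale. They do not come from Fisher's test and can exclude 1 where that test does not pass. The code was tested on simulated data. Motifs were searched on both strands of each 201 bp site. A protein-coding gene was counted by the start of any of its annotated transcripts, whatever the transcript type. Cebpd, Lipin1 and Mymk were absent from the annotation. Clusters were named by a rule: the 12 with 10 or more sites, those with the most VDR sites in each state, and those with the highest and lowest share listed again; all list genes at clusters were also open to naming. A cluster that the rule names is not reported here. Alternatives changed the chain gap, the minimum number of sites, the sites compared, the overlap and the motif window. The members and lists were chosen with earlier results of these data known. Vehicle lists of the other antibodies were not analysed here.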

Additional observations from a re-analysis of the deposited data

How the results depend on the processing

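No paired analysis was possible because each group has 1 list. The number of clusters was 167 with a gap of 5 kb, 938 with 25 kb, 1266 with 3 or more sites, 112 with 6 or more and 325 with sites within 1 kb counted as 1. Of 214 feature values under alternatives, 202 kept their direction and side of the threshold; the cause of the others was not tested. Undifferentiated VDR with vehicle passed with every site of the clusters (odds ratio 1.69), a 5 kb gap (4.49), sites over 1 kb from a start (4.25), sites within 1 kb counted as 1 (2.26) and overlap of more than 50% of the site (2.14). Differentiated VDR with vehicle passed with every site (0), which made 2 features less frequent. The alternative with every site counts neighbours in a cluster as independent. With a 5 kb gap H3K4me3 (1.38 undifferentiated, 0.845 differentiated) and differentiated H3K36me3 (1.22) did not pass, which left 0 less frequent. With sites over 1 kb from a start differentiated H3K4me3 was 1.23, with 0 less frequent. Within H4K5ac and H3K4me1, undifferentiated H3K4me3 (1.12) and differentiated H3K4me1 (2.70) did not pass. The odds ratio of sites listed again did not pass with every site (1.09), a 5 kb gap (1.32), 6 or more sites (1.37), within H4K5ac and H3K4me1 (1.07), overlap of more than 50% (1.06) or without chromosome 19 (1.21).

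For motifs, every site made C/EBP-ATF (0.696) and RUNX (1.12) pass, as did a 25 kb gap (0.687 and 1.26), with 1 motif more frequent each time. With every site, neighbours in a cluster again counted as independent. C/EBP and its palindrome did not pass with a 5 kb gap (0.766, 0.530), 6 or more sites (0.937, 0.470), within H4K5ac and H3K4me1 (0.843, 0.652) or with sites within 1 kb counted as 1 (0.769, 0.404), leaving 0 less frequent. The direction turned for AP-1 with 6 or more sites (1.10) and sites within 1 kb counted as 1 (1.08), and for DR3 with 3 or more sites (0.876) and the central part of the site (0.930). The ratio of differentiated H3K36me3 inside over beside clusters was 1.08 with 6 or more sites. With a 25 kb gap 34 list genes started inside a cluster.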
